A study of Mus musculus with 9 samples.

Results

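Chromatin accessibility was examined around 10 established target genes of the transcription coactivator YAP and its TEAD partners: Ccn1, Ccn2, Ankrd1, Amotl1, Amotl2, Ptpn14, Fjx1, Axl, Lats2 and Ajuba. A peak was counted for a gene when its centre lay in the gene body or within 50 kb of either end on the GRCm38 (mm10) assembly. This gave 221 of the 146734 peaks of the series, between 4 for Fjx1 and 37 for Amotl1, and 0 of them fell in more than 1 window. All 221 passed the filter on low values, a mean of at least 10.

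The cells were D2A1-d, a mouse breast carcinoma line grown in culture. They carried the hairpin shMed4 #1, the hairpin shMed4 #4 or a non-targeting control hairpin (NTC), with 3 libraries per group. Med4 encodes a subunit of Mediator, the complex that passes signals from transcription factors to RNA polymerase II. The labels give Med4 knockdown as the genotype of both hairpin groups and wild type as that of NTC, and no further treatment in any group. The replicates are called biological, but nothing says whether each came from its own transduction, so the p-values speak only of variation among these libraries, which may be technical. ATAC-seq does not measure Med4 RNA, and the extent of the knockdown was not analysed here. Reads were counted in peaks of equal width and scaled by the authors, so each value below is a normalised read number per peak.

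In the Hippo pathway, the kinases MST1 and MST2 with their scaffold SAV1 activate LATS1 and LATS2, which phosphorylate YAP and TAZ and hold them in the cytoplasm. When the kinases are inactive, YAP and TAZ enter the nucleus, bind TEAD factors on DNA and raise transcription, often from distant enhancers that also bind AP-1. In breast cancer cells the pathway is known for its links to matrix stiffness, growth and metastasis. Several of its targets feed back on it: LATS2, the angiomotins AMOTL1 and AMOTL2, and PTPN14 all restrain YAP.

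Libraries held 44.8 to 98.9 M reads in peaks. Of 4 mesenchymal marker genes 3 had a peak within 1 kb of a gene end (Vim, Fn1 and Acta2), and Vim, encoding vimentin, averaged 3072 ± 18.1 with shMed4 #1 and 3085 ± 176 with shMed4 #4, against 4155 ± 227 in NTC. Of 6 epithelial markers 2 had one (Krt18 and Krt14), and Epcam and Cdh1 had none. Of 4 immune and 3 endothelial markers Lyz2 and Cdh5 had one, and Ptprc, Cd3e, Cd79a, Pecam1 and Kdr had none. Krt18, Krt14, Acta2 and Cdh5 were higher in shMed4 cells, by log2 folds of 1.33, 0.79, 2.33 and 0.55, and Vim and Lyz2 were lower, by -0.43 and -0.72. Their part in the results below was not tested. In bulk cells, fewer cells with an open site and less opening per cell cannot be told apart.

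Promoter sequences were read for 8 of the 10 genes from RefSeq (GRCm38.p6), and Ccn2 and Fjx1 had no entry in that table. The 250 bases before the annotated start are shown for 3 genes whose peak at the start fell after Med4 knockdown (Ccn1, Ankrd1 and Axl) and for both genes whose peak there rose (Amotl1 and Ptpn14). Capitals mark the TEAD core, GGAATG or its reverse complement CATTCC.
Ccn1, chr3:145649986-145650235, minus strand: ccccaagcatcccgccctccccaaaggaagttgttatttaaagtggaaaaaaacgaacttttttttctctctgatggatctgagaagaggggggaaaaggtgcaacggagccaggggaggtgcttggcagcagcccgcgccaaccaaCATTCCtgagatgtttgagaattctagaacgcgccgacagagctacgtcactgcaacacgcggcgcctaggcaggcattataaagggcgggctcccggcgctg
Ankrd1, chr19:36119845-36120094, minus strand: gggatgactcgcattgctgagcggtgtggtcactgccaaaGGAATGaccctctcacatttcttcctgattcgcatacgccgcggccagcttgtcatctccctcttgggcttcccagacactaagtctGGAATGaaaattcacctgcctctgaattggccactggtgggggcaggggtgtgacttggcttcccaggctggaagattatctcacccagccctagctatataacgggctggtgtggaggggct
Axl, chr7:25788734-25788983, minus strand: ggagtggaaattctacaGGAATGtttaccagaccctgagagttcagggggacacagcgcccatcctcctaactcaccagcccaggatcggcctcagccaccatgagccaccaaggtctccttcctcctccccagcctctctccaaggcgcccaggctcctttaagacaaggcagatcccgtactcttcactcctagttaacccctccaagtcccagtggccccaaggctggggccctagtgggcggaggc
Amotl1, chr9:14615001-14615250, minus strand: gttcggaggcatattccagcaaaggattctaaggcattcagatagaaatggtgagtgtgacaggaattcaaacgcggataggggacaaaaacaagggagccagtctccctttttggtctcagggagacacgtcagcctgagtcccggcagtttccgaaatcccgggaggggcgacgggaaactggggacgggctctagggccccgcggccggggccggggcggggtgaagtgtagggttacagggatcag
Ptpn14, chr1:189728018-189728267, plus strand: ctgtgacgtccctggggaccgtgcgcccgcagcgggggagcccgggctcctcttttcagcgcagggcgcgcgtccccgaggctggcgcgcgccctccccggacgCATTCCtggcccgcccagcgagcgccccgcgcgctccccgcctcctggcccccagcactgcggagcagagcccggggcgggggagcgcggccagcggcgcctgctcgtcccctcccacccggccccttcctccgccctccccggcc
The core began 103 bases before the start in Ccn1, 210 and 123 bases before it in Ankrd1, 233 in Axl and 146 in Ptpn14, whereas Amotl1 had no match. Of the promoters not shown, Amotl2 held it 65 bases before the start, Ajuba 186 and 164 bases before it, and Lats2 5 bases after it. The start peak of Lats2 also fell, and Lats2 had 2 of the 9 promoters read. Its first held no core in the 250 bases before the start, and its second held none at all. From 250 bases before to 50 after the start, on both strands, 7 of the 8 genes thus held a match, and so did 14.66% of all 32851 promoters of the table. The AP-1 sequence TGANTCA was found in 0 of the 8 genes, against 7.808% of all promoters, and no TEAD match overlapped one. The peak at the start covered 248 of the 250 bases shown for Ccn1 and all 250 for Ankrd1, Axl and Amotl1, but 0 for Ptpn14, whose peak lay further upstream. A match describes letters and not a bound site.

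The 10 genes did not move together. With the mean of both hairpins set against NTC, 54 of the 221 peaks (24.4%) were higher and 66 (29.9%) were lower at an adjusted p under 0.05 (limma, Benjamini-Hochberg adjustment over all peaks, as for every p below). Of all 146729 tested peaks, 27.9% were higher and 26.2% were lower. With each library centred on peaks within 1 kb of a gene end, 78 of the 221 were higher and 37 lower, beside 35.9% and 15.4% of all tested peaks. The median log2 fold was -0.06 over the 221 peaks and -0.02 over all tested peaks. Calls of at least 2-fold numbered 8 upwards and 2 downwards, with shares of 5.97% and 0.96% over all tested peaks. Every shMed4 library lay above every NTC library at 33 peaks (14.9%, against 19.0% of all tested peaks) and below at 48 (21.7%, against 16.5%). The peaks that fell had a median of 671 normalised reads in NTC cells and those that rose had 271, and over all tested peaks these medians were 348 and 157.

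Taken alone, shMed4 #1 gave 53 higher and 67 lower peaks than NTC (over all tested peaks 27.9% and 24.9%). The hairpin shMed4 #4 gave 51 higher and 68 lower (over all tested peaks 26.2% and 24.3%). With the same centring on gene-end peaks the counts were 67 higher and 36 lower for shMed4 #1 (over all tested peaks 34.5% and 16.4%), and 65 and 35 for shMed4 #4 (33.4% and 13.7%). Each hairpin gave the same call at 31 higher (14.0%) and 39 lower (17.6%) peaks, with 17.6% and 13.5% over all tested peaks. At 6 peaks their calls were opposite, as at 3.17% of all tested peaks. These comparisons share the NTC libraries. Set directly against shMed4 #1, shMed4 #4 was higher at 40 peaks and lower at 53, with 20.4% and 21.2% of all tested peaks called. With centring per chromosome it was higher at 49 and lower at 40, with 18.7% and 20.1% of all tested peaks called. Calls of at least 2-fold numbered 9 upwards and 2 downwards for shMed4 #1 (over all tested peaks 6.53% and 2.58%) and 12 and 1 for shMed4 #4 (7.12% and 0.922%). Between hairpins they numbered 1 and 3 (3.16% and 1.19%).

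The counts differed from gene to gene, for the mean of both hairpins. Beside them, 27.9% of all tested peaks were higher and 26.2% lower. Ptpn14 had 13 higher and 1 lower of 27 peaks, Ccn2 had 8 and 0 of 15, and Amotl1 had 12 and 6 of 37. Amotl2 had 6 higher and 4 lower of 24 (25.0% and 16.7%), and Axl had 9 and 9 of 30 (30.0% in each direction). In the other direction, Ccn1 had 2 higher and 17 lower of 26 peaks, Lats2 had 3 and 12 of 25, and Ajuba had 1 and 10 of 24. Ankrd1 had 0 higher and 5 lower of 9, and Fjx1 had 0 and 2 of 4. Single libraries moved some of these: the lower peaks numbered 7 for Lats2 without NTC replicate 3, 3 for Ankrd1 without NTC replicate 2, 3 for Amotl1 without NTC replicate 1, and 7 for Amotl2 without shMed4 #4 replicate 2. Some of these counts differed between hairpins. Amotl1 had 11 higher and 4 lower with shMed4 #1 alone, but 8 higher and 10 lower with shMed4 #4 alone. Amotl2 had 4 higher and 6 lower with shMed4 #1 alone, and 7 and 2 with shMed4 #4 alone. Peaks within 1 kb of a gene end were lower across the genome (median log2 fold -0.12, with 12.1% higher and 41.1% lower). With each library centred on those peaks, 14 Ccn1 peaks, 5 Lats2 peaks, 5 Ajuba peaks, 4 Ankrd1 peaks and 1 Fjx1 peak were lower, and 19 Ptpn14 peaks and 10 Ccn2 peaks were higher. Of all tested peaks, 35.9% were higher and 15.4% lower with that centring. Under the same centring Amotl1 had 16 higher and 2 lower peaks, Amotl2 had 12 and 1, Axl had 12 and 4, and Lats2 had 5 and 5. Centring per chromosome left more lower than higher peaks for 3 of these, with 8 higher and 13 lower peaks for Amotl1, 4 and 7 for Amotl2, and 6 and 14 for Axl. Over all 146729 tested peaks, centring per chromosome gave 40175 higher and 36211 lower.

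**Figure D1:**
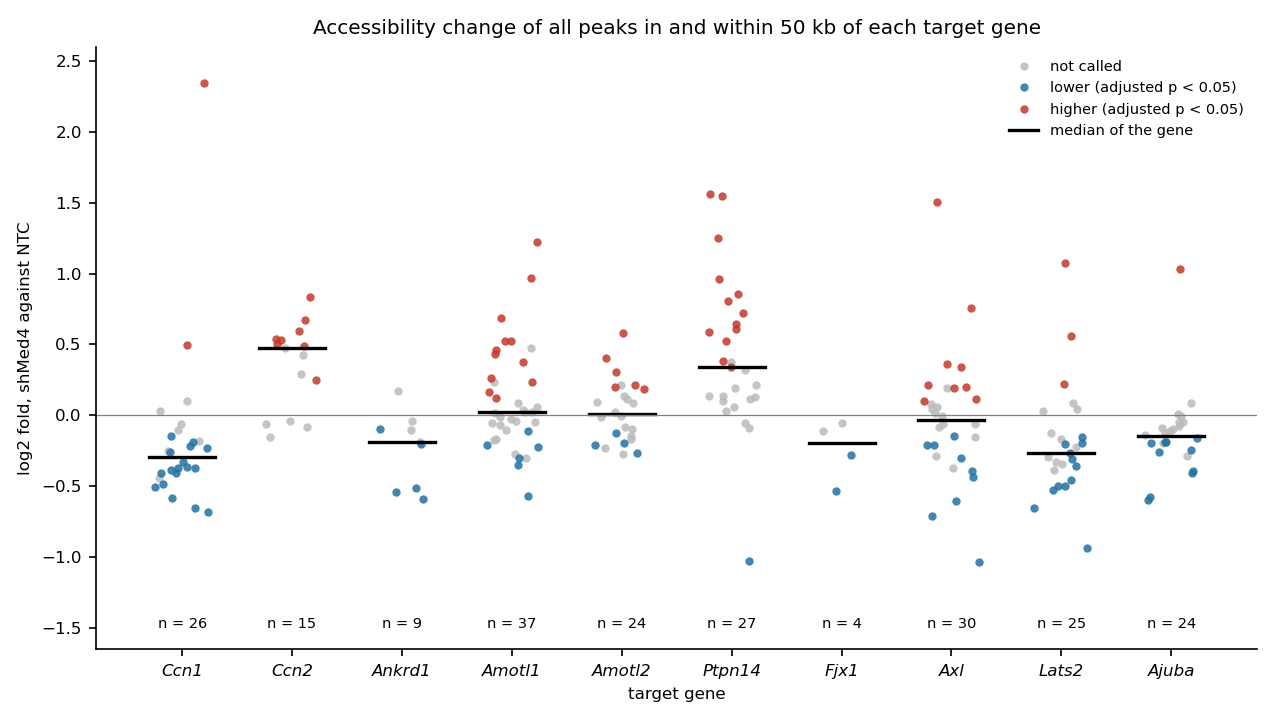
Log2 fold of shMed4 against NTC (vertical axis) for all 221 peaks, grouped by target gene (horizontal axis), with 1 point per peak (red, called higher; blue, called lower; grey, not called) and a bar at each gene's median. Ptpn14 and Ccn2 lie mostly above 0, with medians of 0.34 and 0.47, and Ccn1, Lats2 and Ajuba mostly below, with medians of -0.29, -0.27 and -0.15.

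The start peak of a gene is here the highest peak within 1 kb of its annotated start, or of either gene end for Ccn2 and Fjx1. Of the 10 start peaks, 2 rose (Amotl1 and Ptpn14), 5 fell (Ccn1, Ankrd1, Fjx1, Axl and Lats2), and Ccn2, Amotl2 and Ajuba did not pass the test. Over all gene-end peaks, 12.1% were higher and 41.1% lower. In NTC cells the highest start peaks were Ccn1 with 3863 ± 98.8, Ankrd1 with 3783 ± 112 and Amotl2 with 3515 ± 91.6 normalised reads (SD, n = 3). They stood at the 97.2th, 97.0th and 96.1th percentile of 16292 gene-end peaks. Next came Ptpn14 (1541 ± 84.7), Axl (1389 ± 29.8), Ajuba (1331 ± 7.82), Lats2 (1176 ± 73.1), Amotl1 (863 ± 42.7) and Fjx1 (591 ± 25.1). Ccn2 was lowest with 124 ± 6.05, at the 17.2th percentile. Of neighbours in this order, Ccn1 and Ankrd1 overlapped between NTC libraries and the other pairs did not.

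**Figure D2:**
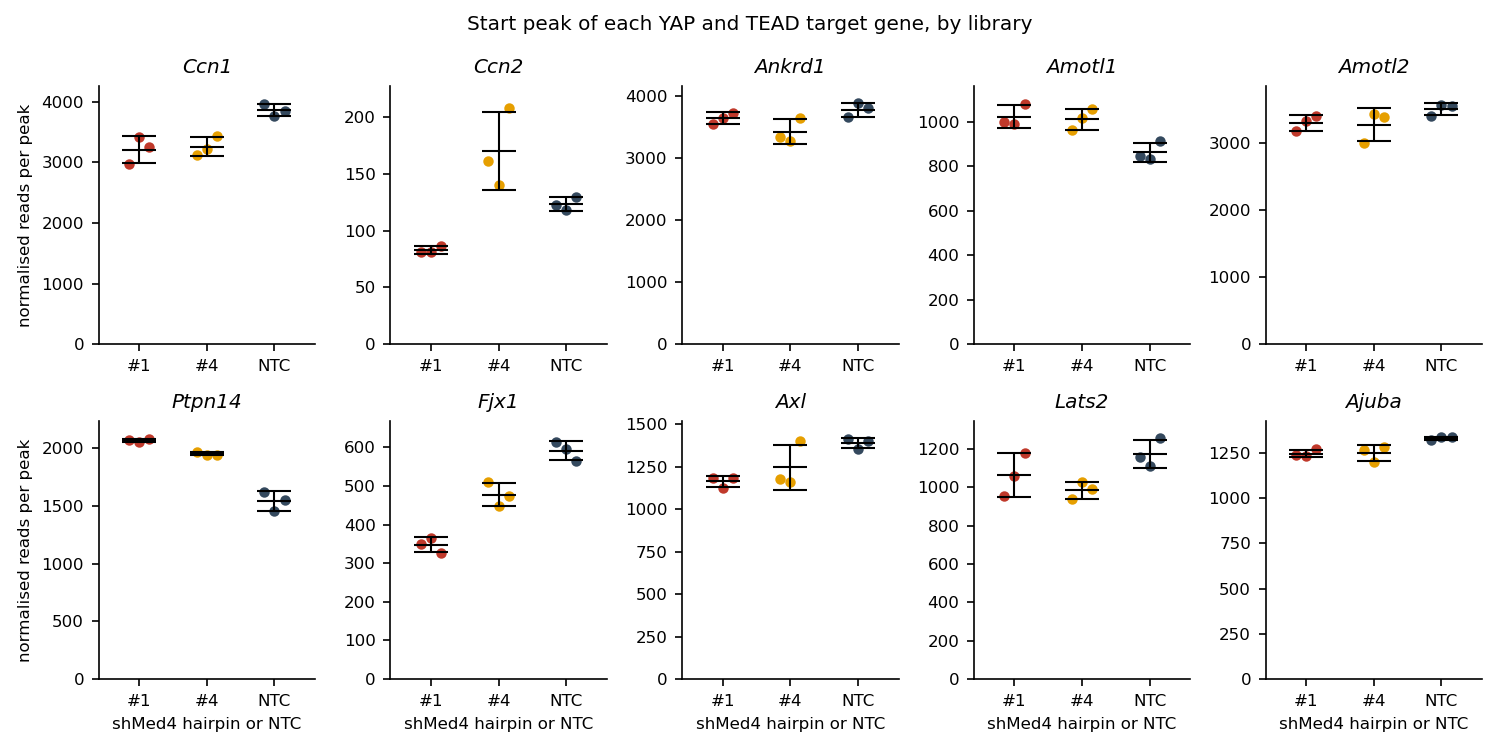
Normalised reads (vertical axes, from 0) in the start peak of each gene, by library, for shMed4 #1, shMed4 #4 and NTC, with bars at the mean and 1 SD either side (n = 3). Ptpn14 and Amotl1 have all 6 shMed4 libraries above NTC, Ccn1, Fjx1 and Ajuba have all 6 below, and at Ccn2 the hairpins lie on opposite sides of NTC.

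Ccn1 encodes a secreted matricellular protein of the CCN family that binds integrins, and its expression is widely used to read YAP activity. For the mean of both hairpins its surroundings were lower broadly: 17 of 26 peaks fell, and of the 18 peaks nearest to Ccn1 itself 15 fell and 0 rose. Of those 18, shMed4 #1 alone had 13 lower and 2 higher, and shMed4 #4 alone had 15 lower and 0 higher. At 2 of them the calls of the hairpins were opposite. Set directly against shMed4 #1, shMed4 #4 was higher at 8 of the 26 peaks and lower at 5. At the start peak, chr3:145649732-145650233, the libraries held 2974, 3413 and 3245 with shMed4 #1, 3118, 3224 and 3434 with shMed4 #4, and 3968, 3772 and 3849 in NTC. All 6 shMed4 libraries were below the lowest NTC library (log2 fold -0.26, SE 0.04, adjusted p = 4.82e-06). The difference between hairpins there was 0.02 (SE 0.05, adjusted p = 0.751). The strongest peak of the window, chr3:145684989-145685490, 35.3 kb upstream, averaged 6302 ± 247 with shMed4 #1 and 6552 ± 289 with shMed4 #4, against 7103 ± 154 in NTC. It fell (log2 fold -0.15, adjusted p = 0.00164), a call lost with centring on gene-end peaks (adjusted p = 0.27). Summed over the window, the peaks held 27072 ± 276 with shMed4 #1 and 27302 ± 655 with shMed4 #4, against 31589.9 ± 717 in NTC, without overlap. Peaks 50 kb to 1 Mb away had a median log2 fold of -0.10, against -0.29 in the window.

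Further from the Ccn1 start lay the largest called fall and the largest called rise of the window. At chr3:145681286-145681787, 31.6 kb upstream, the libraries held 707, 685 and 649 with shMed4 #1, 283, 293 and 268 with shMed4 #4, and 765, 711 and 639.8 in NTC. The shMed4 #4 libraries were far below both other groups, and shMed4 #1 overlapped with NTC. The log2 fold was -1.32 (SE 0.08) for shMed4 #4 and -0.05 (SE 0.08) for shMed4 #1, and the difference was -1.27 (adjusted p = 4.45e-16). The largest log2 fold of all 221 peaks lay at chr3:145614434-145614935, 35.3 kb downstream of the Ccn1 start and nearest to Znhit6. The libraries there held 295, 338 and 286 with shMed4 #1, 271, 240.4 and 239.9 with shMed4 #4, and 58.1, 52.4 and 50.7 in NTC. Every shMed4 library was several times any NTC library (log2 fold 2.34, SE 0.11, adjusted p = 3.38e-20).

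Ccn2, a related matricellular protein known as connective tissue growth factor, had a weak start peak at which the hairpins differed in direction. At chr10:24595144-24595645 the libraries held 80.8, 81.1 and 86.9 with shMed4 #1, 162, 141 and 208 with shMed4 #4, and 123, 118 and 130.1 in NTC. Every shMed4 #1 library was below NTC and every shMed4 #4 library was above it. The log2 fold was -0.57 (SE 0.15, adjusted p = 0.0018) for shMed4 #1 and 0.44 (SE 0.15, adjusted p = 0.015) for shMed4 #4, and the difference was 1.01 (adjusted p = 1.09e-06). The call for shMed4 #4 against NTC was lost without shMed4 #4 replicate 3 (0.29, adjusted p = 0.14) and without NTC replicate 2 (adjusted p = 0.052). As a pair the hairpins gave -0.06 (adjusted p = 0.701).

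Over the whole window, 8 of 15 Ccn2 peaks rose and 0 fell. For the mean of both hairpins, the median log2 fold was 0.47 in the window and 0.15 from 50 kb to 1 Mb away. These medians were 0.24 and 0.21 with shMed4 #1 alone, and 0.23 and 0.07 with shMed4 #4 alone. Each hairpin alone was called higher at the same peak in 1 case. That peak, chr10:24589218-24589719, 5.97 kb to the left of the gene on the reference strand, averaged 437 ± 6.25 with shMed4 #1 and 499 ± 40.2 with shMed4 #4, against 293 ± 23.0 in NTC (log2 fold 0.67, adjusted p = 3.55e-10) and was picked out after its values were seen. The largest rise, chr10:24642873-24643374 near Enpp1, held 135, 122 and 123 with shMed4 #1, 67.5, 53.7 and 37.0 with shMed4 #4, and 42.8, 62.6 and 33.5 in NTC. There shMed4 #1 stood above both other groups, which overlapped (log2 fold 0.83, SE 0.20, adjusted p = 0.000514, and -1.29 for shMed4 #4 against shMed4 #1). At the highest peak, chr10:24554028-24554529, the means were 781 ± 32.6 with shMed4 #1 and 951 ± 58.9 with shMed4 #4, against 726 ± 48.1 in NTC (log2 fold 0.25, adjusted p = 0.000325, and 0.28 between hairpins). There shMed4 #4 was called against NTC, and shMed4 #1 was called only with centring on gene-end peaks among the scalings (0.21, adjusted p = 0.0068). Summed over the window, the peaks held 3352 ± 63.1 with shMed4 #1 and 3416 ± 77.3 with shMed4 #4, against 2798 ± 40.0 in NTC, without overlap.

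**Figure D3:**
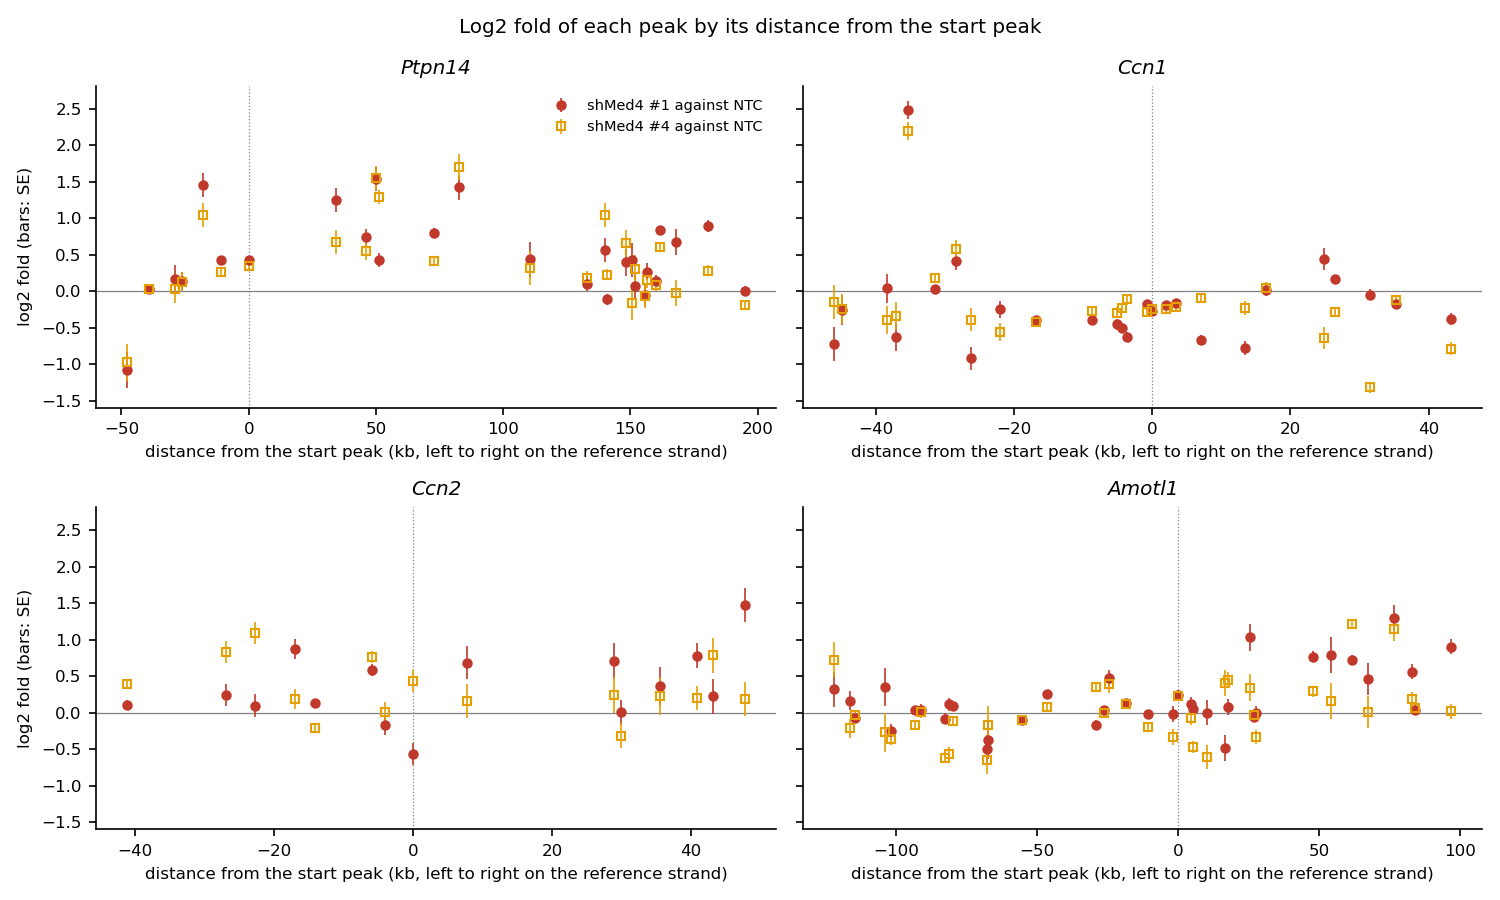
Log2 fold against NTC with SE bars (vertical axes) of each peak by its distance in kb from the start peak (horizontal axes, left to right on the reference strand) around Ptpn14, Ccn1, Ccn2 and Amotl1, for shMed4 #1 and shMed4 #4. Both hairpins lie above 0 over most of Ptpn14, most points around Ccn1 lie below 0 apart from the peak at 2.49 and 2.20, and at the Ccn2 start peak the hairpins separate, at -0.57 and 0.44.

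Fjx1 is the mammalian relative of the Drosophila gene four-jointed, whose product is a Golgi kinase that modifies Fat and Dachsous cadherins, and it had 4 peaks. Its start peak, chr2:102452026-102452527, had the most negative log2 fold of the 10. It held 351, 365 and 327 with shMed4 #1, 509.5, 449 and 474 with shMed4 #4, and 614, 596 and 565 in NTC. The 3 groups did not overlap (log2 fold -0.54, SE 0.07, adjusted p = 1.17e-08). The log2 fold was -0.77 with shMed4 #1 and -0.31 with shMed4 #4, and they differed by 0.46 (adjusted p = 7.14e-06). Chromosome 2 as a whole had a median of -0.25, and peaks 50 kb to 1 Mb from Fjx1 had -0.13. The call for shMed4 #4 alone was lost with centring per chromosome (adjusted p = 0.063) and with centring on gene-end peaks (0.06). The strongest peak of the window, chr2:102400970-102401471 at an end of Trim44, averaged 1121 ± 56.9 with shMed4 #1 and 1204 ± 29.0 with shMed4 #4, against 1254 ± 30.2 in NTC (log2 fold -0.11, adjusted p = 0.0503), and passed with equal library totals (0.019), with centring on peaks away from gene ends (0.022), and without shMed4 #1 replicate 2 (0.034) or shMed4 #4 replicate 3 (0.039).

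Ankrd1 encodes a nuclear and sarcomeric ankyrin repeat protein that is among the strongest YAP targets. For the mean of both hairpins, 0 of its 9 peaks rose and 5 fell. With shMed4 #1 alone 0 rose and 5 fell, and with shMed4 #4 alone 1 rose and 6 fell. Each hairpin was called lower at the same 3 peaks, and at 1 peak their calls were opposite. The start peak, chr19:36119752-36120253, held 3545, 3654 and 3733 with shMed4 #1, 3349, 3280.5 and 3655 with shMed4 #4, and 3662, 3883 and 3804 in NTC. The shMed4 #4 libraries were all below NTC, while shMed4 #1 overlapped with it (log2 fold -0.10, SE 0.04, adjusted p = 0.0417). With centring on gene-end peaks the value was 0.01 (adjusted p = 0.86). The call was also lost without shMed4 #1 replicate 1 (adjusted p = 0.099) or 2 (0.061), shMed4 #4 replicate 2 (0.11), and NTC replicate 2 (0.19) or 3 (0.13). The largest fall, chr19:36103849-36104350 at an end of Rpp30, was to 133 ± 10.1 with shMed4 #1 and 105 ± 39.8 with shMed4 #4, against 174 ± 19.5 in NTC, without overlap (log2 fold -0.59, adjusted p = 0.00159). Summed over the window, the peaks held 8834 ± 35.5 with shMed4 #1 and 8251 ± 214 with shMed4 #4, against 9502 ± 58.5 in NTC, also without overlap.

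Ptpn14, a protein tyrosine phosphatase that binds YAP and restrains it, was more accessible across its body. Of the 11 peaks inside the gene 8 rose and 0 fell, and of the 15 peaks nearest to it 11 rose. The start peak, chr1:189727244-189727745, 0.774 kb upstream of the start, held 2069.6, 2052 and 2075 with shMed4 #1, 1969.7, 1944 and 1942 with shMed4 #4, and 1619, 1451 and 1554 in NTC. Both hairpin groups stood clear of NTC (log2 fold 0.38, SE 0.04, adjusted p = 2.47e-09). The largest rise lay 82.0 kb into the gene at chr1:189810034-189810535, and held 141, 122 and 114 with shMed4 #1, 158, 136 and 164 with shMed4 #4, and 46.0, 37.0 and 57.3 in NTC. No shMed4 library overlapped with NTC (log2 fold 1.56, SE 0.15, adjusted p = 3.48e-11). Another intragenic peak, chr1:189777109-189777610, picked out after its values were seen, averaged 176 ± 21.1 with shMed4 #1 and 179 ± 34.3 with shMed4 #4, against 60.4 ± 11.7 in NTC (log2 fold 1.55, adjusted p = 7.94e-12).

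Beyond Ptpn14 the picture was mixed. Of 12 peaks nearest to other genes 2 rose and 1 fell. The strongest peak of the window, chr1:189687974-189688475 at an end of Cenpf, averaged 3403 ± 117 with shMed4 #1 and 3430.1 ± 260.4 with shMed4 #4, against 3348 ± 118 in NTC (log2 fold 0.03, adjusted p = 0.607). With centring on gene-end peaks it was called higher (0.14, adjusted p = 0.00086). The single fall, chr1:189679518-189680019, 48.5 kb upstream, was to 36.0 ± 6.43 with shMed4 #1 and 39.4 ± 11.6 with shMed4 #4, against 76.8 ± 7.64 in NTC (log2 fold -1.03, adjusted p = 0.000127). For the mean of both hairpins, peaks 50 kb to 1 Mb away had a median log2 fold of 0.17, chromosome 1 had 0.08, and the window had 0.34. With shMed4 #1 alone the median was 0.17 at that distance and 0.42 in the window. With shMed4 #4 alone it was 0.31 at that distance and 0.28 in the window. Summed over the window, the peaks held 16578 ± 280.1 with shMed4 #1 and 15483 ± 353 with shMed4 #4, against 12938 ± 185 in NTC, without overlap.

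Amotl1 encodes an angiomotin-like protein that binds YAP at cell junctions. Its start peak, chr9:14614802-14615303, held 997, 990.5 and 1082 with shMed4 #1, 962, 1015 and 1055 with shMed4 #4, and 845, 833 and 912 in NTC. The 6 shMed4 libraries were all above NTC (log2 fold 0.24, SE 0.05, adjusted p = 0.000265). The start in the promoter table lies inside the gene body, and a peak at the gene's outer end, chr9:14662761-14663262, 48.0 kb further upstream, averaged 908 ± 26.1 with shMed4 #1 and 657 ± 90.0 with shMed4 #4, against 534 ± 10.1 in NTC (log2 fold 0.53, adjusted p = 9.11e-09); it was picked out after its values were seen. The largest rise, chr9:14691459-14691960, was nearest to Piwil4 and averaged 125 ± 19.4 with shMed4 #1 and 112 ± 5.51 with shMed4 #4, against 49.9 ± 2.61 in NTC (log2 fold 1.23, adjusted p = 8.94e-09). The largest fall, chr9:14546943-14547444 inside the gene, was to 67.2 ± 4.73 with shMed4 #1 and 60.9 ± 11.2 with shMed4 #4, against 95.2 ± 10.5 in NTC (log2 fold -0.57, adjusted p = 0.00438). Both had no overlap between shMed4 and NTC libraries. The highest peak, chr9:14588570-14589071, averaged 2255 ± 54.2 with shMed4 #1 and 2204 ± 114 with shMed4 #4, against 2203 ± 20.2 in NTC, with overlap (log2 fold 0.02, adjusted p = 0.765), and was called higher with centring on gene-end peaks (0.12, adjusted p = 0.0067). Set against shMed4 #1, shMed4 #4 was higher at 4 Amotl1 peaks and lower at 16. Summed over the window, the peaks held 24130 ± 420 with shMed4 #1 and 22470 ± 551 with shMed4 #4, against 22521 ± 230 in NTC. The shMed4 #1 sums were all above NTC, and those of shMed4 #4 overlapped with it.

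Amotl2, a second angiomotin-like protein, was strongly open at its start in every group. The start peak, chr9:102717422-102717923, held 3181, 3326 and 3403 with shMed4 #1, 3002, 3442 and 3396 with shMed4 #4, and 3410.1, 3579 and 3556 in NTC. The shMed4 #4 libraries overlapped with NTC, and the difference did not pass the test (log2 fold -0.10, SE 0.04, adjusted p = 0.0593). It passed with centring per chromosome (adjusted p = 0.001) and without shMed4 #1 replicate 3 (0.044), shMed4 #4 replicate 2 (0.035) or shMed4 #4 replicate 3 (0.025). The largest rise, chr9:102673294-102673795, 44.3 kb upstream near Anapc13, was to 2561 ± 93.6 with shMed4 #1 and 2122 ± 111 with shMed4 #4, against 1564 ± 125 in NTC, and the 3 groups did not overlap (log2 fold 0.58, adjusted p = 6.69e-13). The largest fall, chr9:102738366-102738867, was to 744 ± 5.32 with shMed4 #1 and 818 ± 19.4 with shMed4 #4, against 941 ± 58.4 in NTC (log2 fold -0.27, adjusted p = 6.05e-05). The strongest peak, chr9:102777483-102777984, averaged 4139 ± 224 with shMed4 #1 and 4463 ± 332 with shMed4 #4, against 4335 ± 80.0 in NTC, with overlap (log2 fold -0.01, adjusted p = 0.803), and was called higher with centring on gene-end peaks (0.09, adjusted p = 0.019). Window sums also overlapped, at 25485 ± 659 with shMed4 #1 and 26082 ± 948 with shMed4 #4, against 25211 ± 519 in NTC.

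Lats2 encodes a kinase that phosphorylates YAP and TAZ. For the mean of both hairpins 12 of its 25 peaks were lower, 6 of them inside the gene, or 7 without NTC replicate 3. With shMed4 #1 alone 14 of the 25 were lower, with shMed4 #4 alone 9, and with each hairpin the same 6. Of the 12 peaks inside the gene, 7 were lower with shMed4 #1 alone, 3 with shMed4 #4 alone and 2 with each. The Lats2 start peak, chr14:57746007-57746508, has Gm52140 as its nearest gene. It held 953, 1062 and 1179.5 with shMed4 #1, 938, 1026 and 989.6 with shMed4 #4, and 1161, 1111 and 1255 in NTC. The shMed4 #4 libraries were below NTC and shMed4 #1 overlapped with it (log2 fold -0.20, SE 0.06, adjusted p = 0.00313). Without NTC replicate 3 the adjusted p was 0.058, and with centring on gene-end peaks it was 0.15. Among peaks averaging at least 50, the largest fall, chr14:57711967-57712468 inside the gene, was to 79.9 ± 1.12 with shMed4 #1 and 92.1 ± 16.9 with shMed4 #4, against 135 ± 16.1 in NTC (log2 fold -0.65, adjusted p = 0.000226). The largest rise, chr14:57772491-57772992, 26.6 kb upstream, was to 96.7 ± 14.7 with shMed4 #1 and 140.3 ± 17.6 with shMed4 #4, against 54.9 ± 9.92 in NTC (log2 fold 1.08, adjusted p = 2.86e-07). Neither had overlap between shMed4 and NTC libraries. The strongest peak, chr14:57760384-57760885, averaged 2521 ± 21.6 with shMed4 #1 and 2959 ± 47.5 with shMed4 #4, against 3033 ± 123 in NTC (log2 fold -0.15, adjusted p = 0.00193, or 0.35 with centring on gene-end peaks). It was lower with shMed4 #1 (-0.27) than with shMed4 #4 (-0.03), a difference of 0.23 (adjusted p = 0.000114).

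Ajuba encodes a LIM domain protein that inhibits LATS kinases, and all 5 peaks inside the gene fell, 4 of them with each hairpin. Their log2 folds ran between -0.57 and -0.16. The peak nearest the annotated start, chr14:54577308-54577809, picked out for its position, averaged 1024 ± 82.1 with shMed4 #1 and 1003 ± 58.0 with shMed4 #4, against 1156 ± 39.0 in NTC (log2 fold -0.19, adjusted p = 0.00287). The start peak by level, chr14:54578082-54578583, 0.672 kb upstream, held 1236, 1233 and 1269.7 with shMed4 #1, 1263, 1198 and 1282 with shMed4 #4, and 1322, 1336 and 1335 in NTC. No shMed4 library reached the NTC values, yet the difference did not pass the test (log2 fold -0.09, SE 0.05, adjusted p = 0.0837). It passed with equal library totals (adjusted p = 0.034) and with centring on peaks away from gene ends (0.036).

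The single rise around Ajuba, chr14:54596330-54596831, lay 18.9 kb upstream and nearest to 4931414P19Rik. Its libraries held 881, 853 and 918 with shMed4 #1, 1046, 1046 and 1242 with shMed4 #4, and 502, 449 and 497 in NTC. The 3 groups were separate (log2 fold 1.04, SE 0.06, adjusted p = 2.3e-17, and 0.33 between hairpins). The largest fall, chr14:54547622-54548123 near Haus4, was to 53.7 ± 17.2 with shMed4 #1 and 55.9 ± 22.0 with shMed4 #4, against 81.1 ± 15.1 in NTC, with overlap (log2 fold -0.60, adjusted p = 0.0187), and was not called without shMed4 #1 replicate 2 (adjusted p = 0.056), NTC replicate 1 (0.13) or NTC replicate 2 (0.073). The strongest peak of the window, at an end of Prmt5, averaged 5522 ± 172 with shMed4 #1 and 5409.7 ± 425 with shMed4 #4, against 5814 ± 192 in NTC (log2 fold -0.09, adjusted p = 0.0666), and passed with equal library totals (0.005), with centring on peaks away from gene ends (0.036), and without shMed4 #1 replicate 3 (0.044) or shMed4 #4 replicate 3 (0.0058).

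Axl, a receptor tyrosine kinase activated by GAS6, had falls in the gene and rises beyond it. Of 9 peaks inside Axl 6 fell and 2 rose, and of 19 peaks nearest to other genes 1 fell and 7 rose. The start peak, chr7:25788506-25789007, held 1186, 1126 and 1182 with shMed4 #1, 1179, 1160 and 1401 with shMed4 #4, and 1412, 1356 and 1401 in NTC. A single library, shMed4 #4 replicate 3, reached the NTC range (log2 fold -0.21, SE 0.05, adjusted p = 0.00107, or 0.097 with centring on gene-end peaks). The largest fall, chr7:25768674-25769175, 19.8 kb into the gene, held 83.2, 73.0 and 81.4 with shMed4 #1, 112, 94.6 and 67.0 with shMed4 #4, and 201, 164 and 156 in NTC, without overlap (log2 fold -1.03, SE 0.15, adjusted p = 2.41e-07). Near Cyp2s1, 43.3 kb upstream, the peak chr7:25831776-25832277 rose to 233 ± 40.1 with shMed4 #1 and 270 ± 14.8 with shMed4 #4, against 87.2 ± 3.25 in NTC (log2 fold 1.51, adjusted p = 1.45e-14). The strongest Axl peak, chr7:25782015-25782516, averaged 3038 ± 79.4 with shMed4 #1 and 2841 ± 66.8 with shMed4 #4, against 3246 ± 48.5 in NTC (log2 fold -0.14, adjusted p = 0.00239, or 0.4 with centring on gene-end peaks). Window sums overlapped, at 26616 ± 484 with shMed4 #1 and 26251 ± 769 with shMed4 #4, against 26507 ± 230 in NTC.

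Other genes of the pathway were read at their start peaks or, for 15 of the 47 that had no entry in the promoter table, at the highest peak within 1 kb of either gene end, where the start and the far end cannot be told apart. Limd1, Tead1, Tead4, Arhgef17 and Thbs1 are among those 15. Of 22 Hippo kinases and scaffolds 18 had one, of which 1 rose and 5 fell. Of 10 YAP, TAZ, TEAD and VGLL factors 8 had one, of which 1 rose and 4 fell. Of 22 further published targets 21 had one, of which 3 rose and 9 fell. The median log2 fold over all 47 was -0.11, beside -0.12 over gene-end peaks, of which 12.1% were higher and 41.1% lower. With centring on gene-end peaks 3 Hippo genes rose and 2 fell, 1 factor rose and 2 fell, and 5 targets rose and 4 fell. With centring on peaks away from gene ends 7 factors fell, and 0 Hippo genes rose there, with equal library totals or with centring per chromosome. Single libraries also moved these counts. Without NTC replicate 3, 2 factors and 5 targets fell, and 2 factors fell without shMed4 #1 replicate 1 or shMed4 #4 replicate 1. Without shMed4 #4 replicate 3, 8 Hippo genes fell. The targets that rose numbered 1 without NTC replicate 2 and 5 without shMed4 #4 replicate 1. The Hippo gene that rose, Limd1 (log2 fold 0.12, adjusted p = 0.0493), was not called with centring per chromosome (adjusted p = 0.5), or when shMed4 #1 replicate 1 or 2, shMed4 #4 replicate 2 or 3, or NTC replicate 2 or 3 was left out (adjusted p = 0.052 to 0.18), and 2 Hippo genes rose without shMed4 #4 replicate 1.

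**Figure D4:**
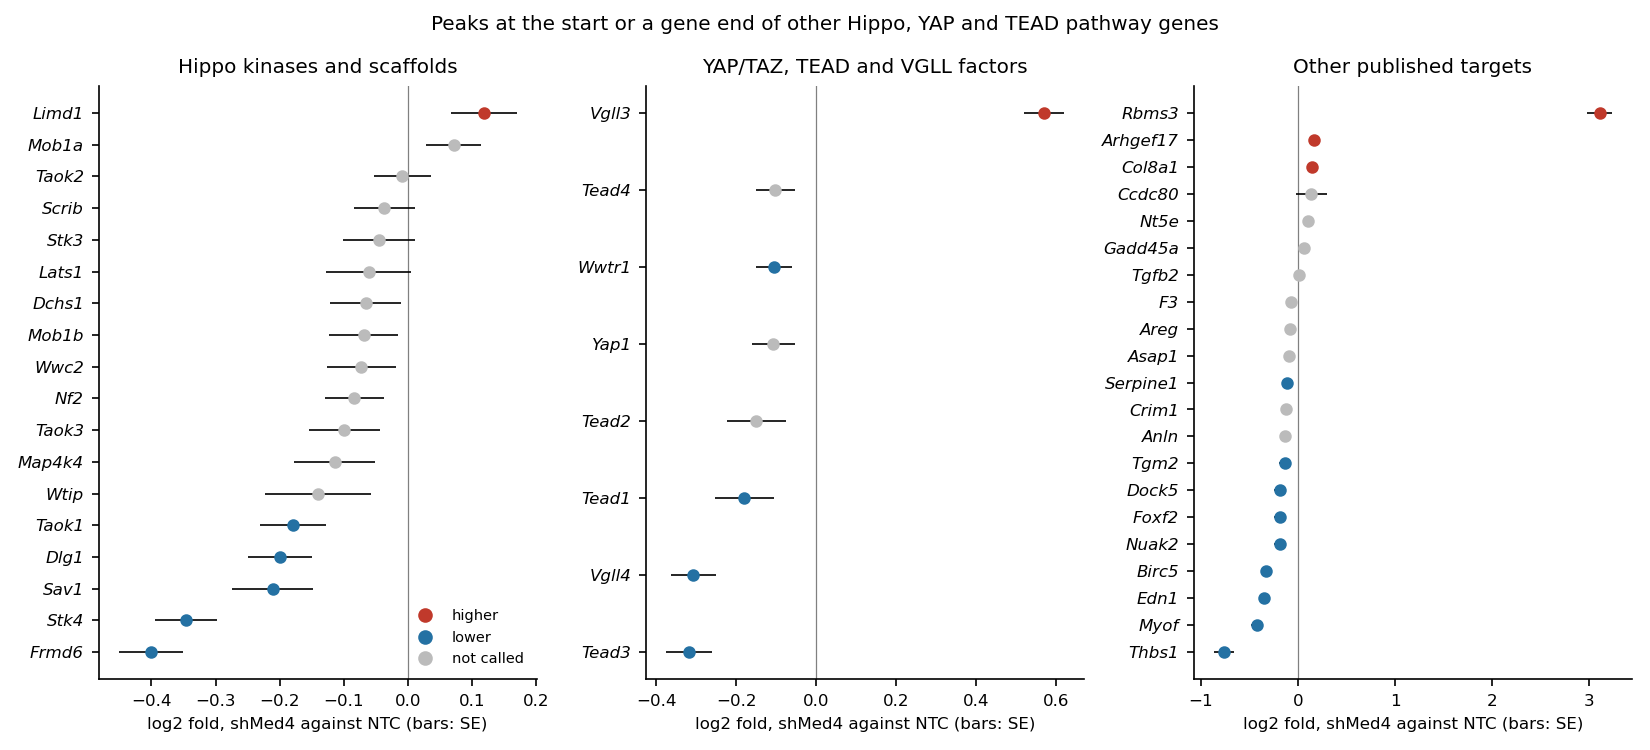
Log2 fold of shMed4 against NTC with SE bars (horizontal axes) at the start or gene-end peaks of 18 Hippo genes, 8 YAP, TEAD and VGLL factors and 21 other targets, 1 gene per row. Rbms3 at 3.11 and Vgll3 at 0.57 stand above the rest, and Thbs1 lies lowest at -0.76.

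Among the factors, Yap1 itself averaged 771 ± 18.7 with shMed4 #1 and 704 ± 28.3 with shMed4 #4, against 794 ± 31.1 in NTC, with overlap (log2 fold -0.11, adjusted p = 0.0931). With shMed4 #4 alone all 3 libraries were below NTC and the peak was called lower (-0.17, adjusted p = 0.0214), but not with centring on gene-end peaks (0.48). Both hairpins together passed with centring per chromosome (-0.18, adjusted p = 0.0048) and on peaks away from gene ends (0.044). Wwtr1, which encodes TAZ, fell (log2 fold -0.11, adjusted p = 0.0456), with the sign reversed under centring on gene-end peaks (0.0012) and the call lost with centring per chromosome (adjusted p = 0.16). It was not called without NTC replicate 1 (0.062), 2 (0.12) or 3 (0.19), shMed4 #1 replicate 1 (0.15) or 2 (0.074), or shMed4 #4 replicate 1 (0.078). Tead1, a DNA-binding partner of YAP, also fell (log2 fold -0.18, adjusted p = 0.0368), but not without shMed4 #1 replicate 1 (0.14) or 2 (0.058), shMed4 #4 replicate 1 (0.086), or NTC replicate 2 (0.12) or 3 (0.23), nor with centring on gene-end peaks (-0.07, adjusted p = 0.37). Tead2 (log2 fold -0.15, adjusted p = 0.0847) and Tead4 (log2 fold -0.10, adjusted p = 0.0759) did not pass, although Tead2 passed without shMed4 #1 replicate 2 (0.028), shMed4 #4 replicate 2 (0.046) or NTC replicate 2 (0.031), and Tead4 without shMed4 #1 replicate 3 (0.018) or shMed4 #4 replicate 2 (0.032). Tead4 also passed with centring per chromosome (-0.24, adjusted p = 0.0001), with equal library totals (0.017) and with centring on peaks away from gene ends (0.041), and Tead2 with the first (0.017) and the last of these (0.046). Tead3, whose start peak is also at an end of Tulp1, fell (log2 fold -0.32, adjusted p = 1.38e-05). Vgll3, a TEAD cofactor, rose to 1159 ± 37.8 with shMed4 #1 and 1368 ± 85.6 with shMed4 #4, against 847 ± 13.6 in NTC, without overlap (log2 fold 0.57, adjusted p = 3.3e-12).

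The largest log2 fold of the pathway genes was at Rbms3, an RNA-binding protein gene of a published YAP signature. Its start peak held 283, 291 and 235 with shMed4 #1, 289, 281 and 258 with shMed4 #4, and 34.7, 33.9 and 24.5 in NTC. The groups stood far apart (log2 fold 3.11, SE 0.13, adjusted p = 8.67e-22). This peak is at 1 of 2 annotated starts of Rbms3 and lies inside the gene body. It was picked as the higher of 2 peaks within 1 kb of a start, by the mean over all 9 libraries. The shMed4 values thus entered its choice. Its level in NTC cells was low, at the 0.64th percentile of gene-end peaks. Arhgef17 (log2 fold 0.16, adjusted p = 0.011) and Col8a1 (log2 fold 0.14, adjusted p = 0.0096) also rose, but Arhgef17 not with centring per chromosome (adjusted p = 0.11). Without NTC replicate 2 the adjusted p was 0.097 for Arhgef17 and 0.064 for Col8a1, and without NTC replicate 3 it was 0.054 for Col8a1. Thbs1, encoding the matricellular protein thrombospondin 1, was read at a peak beyond its right end on the reference strand, which averaged 128 ± 28.2 with shMed4 #1 and 301 ± 34.3 with shMed4 #4, against 331 ± 10.1 in NTC. The shMed4 #1 libraries were below both other groups, with a log2 fold of -1.39 against -0.14 for shMed4 #4, and the difference was 1.25 (adjusted p = 1.07e-10). Also lower were Myof, a ferlin of membrane repair (-0.43), Frmd6, a Hippo scaffold (-0.40), Edn1, encoding endothelin 1 (-0.35), and Stk4, encoding the kinase MST1 (-0.35). Edn1 had -0.56 with shMed4 #1 and -0.15 with shMed4 #4, which overlapped with NTC. The Edn1 call for shMed4 #4 was lost with centring on gene-end peaks (adjusted p = 0.62) or per chromosome (0.52). It was also lost without shMed4 #4 replicate 1 (0.061) or 2 (0.15), or NTC replicate 2 (0.12) or 3 (0.21). Stk4 had -0.46 with shMed4 #1 and -0.24 with shMed4 #4, a call lost for shMed4 #4 with centring per chromosome (0.13).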

How the data were processed

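ATAC-seq was analysed in 9 libraries of D2A1-d cells, 3 per group. The deposited signal is the authors' read count per peak divided by a size factor per library, and the table names DESeq2 as the tool. Trim Galore, BWA, MACS2, featureCounts and Subread, and the builds mm10 and GRCm38, are named in the submitters' processing notes, without versions. In every library, dividing by its own smallest increment turned 100% of values into whole numbers to within 0.01 read, and these gave the reads in peaks. Peak coordinates are as deposited, with no statement of the base they are counted from.

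The signal was tested as log2(value + 1) with limma 3.58.1 in R 4.3.3 (lmFit, eBayes with trend), in 1 fit over all 9 libraries and 146729 peaks (filter: mean normalised value 10 or more). P-values were adjusted by the Benjamini-Hochberg method over all of them, and a peak was called at an adjusted p under 0.05. Fold changes are on that log2 scale, which understates the change of low peaks. Tables were handled with the R package data.table (version 1.17.8), Python 3.11.15, pandas 2.3.3 and numpy 2.4.6, and plots were drawn with matplotlib 3.10.9. The code was tested on simulated data.

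For each gene the text names its start peak, its highest peak and, among called peaks averaging 50 or more, the one with the largest rise and the one with the largest fall. Of the other pathway genes it names the 5 highest and 5 lowest called folds, Yap1, Wwtr1 and Tead1 to Tead4. Pathway genes without an entry in the promoter table and markers were read at peaks within 1 kb of a gene end. The members and lists were chosen with earlier results of these data known. Alternative scalings, filters, pseudocounts and thresholds, a replicate block and leaving out each library were tried.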

Additional observations from a re-analysis of the deposited data

Results flagged for a closer look

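At 9 of the named peaks around the 10 genes, the hairpins differed from each other by a direct test (limma, shMed4 #4 against shMed4 #1, adjusted p under 0.05). At the Ccn2 start peak the log2 difference was 1.01 (adjusted p = 1.09e-06), with opposite calls against NTC. The other Ccn2 differences were -1.29 at the largest rise (adjusted p = 1.63e-05) and 0.28 at the highest peak (0.000588). At the largest fall around Ccn1 the difference was -1.27 (adjusted p = 4.45e-16). The Fjx1 start peak had 0.46 (adjusted p = 7.14e-06), with both hairpins below NTC. The largest rise around Amotl2 had -0.27 (adjusted p = 0.00012) and that around Ajuba had 0.33 (0.000203), with both hairpins above NTC. Lats2 had 0.23 at its highest peak (adjusted p = 0.000114) and 0.54 at its largest rise (0.0152). The last of these was not called without shMed4 #1 replicate 1 (adjusted p = 0.11) or shMed4 #4 replicate 3 (0.068). Of the pathway genes named, the hairpins also differed at the gene-end peak of Thbs1 (1.25) and the start peaks of Edn1 (0.41), Col8a1 (0.26), Vgll3 (0.24), Stk4 (0.22) and Tead2 (-0.26). With centring per chromosome the difference was not called at Stk4 (0.05, adjusted p = 0.5) or Vgll3 (0.12, adjusted p = 0.088). At Tead2 it was not called without shMed4 #1 replicate 2 (adjusted p = 0.17) or shMed4 #4 replicate 3 (0.05004). Among markers the hairpins differed at gene-end peaks of Krt18 (0.33), Krt14 (-0.24) and Cdh5 (-0.61).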

How the results depend on the processing

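Across alternatives to the reported settings, 3825 values were recomputed over 204 results for named peaks. Of these, 3562 kept their side of the threshold, 138 lost the call and 119 gained it. A further 6 changed sign with a call in either setting. Changes of sign without a call in either setting are counted among the 3562. Some settings, such as the threshold of 0.01, could not move the fold. Of the shares of called peaks, those of lower peaks moved by more than 1.5 times with centring on gene-end peaks, to 16.7% for both hairpins, 16.3% for shMed4 #1 and 15.8% for shMed4 #4, and to 19.9% for shMed4 #1 at an adjusted p under 0.01. That centring shifted the median of all peaks to 0.09, against -0.02 as reported, with 52603 higher and 22640 lower peaks of all tested. Signs reversed under it at the start peaks of Ankrd1 (0.0086) and Wwtr1 (0.0012) and at the highest peaks of Amotl2 (0.093) and, for shMed4 #4, Amotl1 (0.11). With centring per chromosome they reversed for shMed4 #1 at the highest peaks of Ptpn14 (-0.12) and Fjx1 (0.14). The cause was not tested. Leaving out each library in turn gave 21.3 to 25.3% higher and 26.2 to 33.0% lower for both hairpins, 21.3 to 24.4% higher and 22.2 to 32.6% lower for shMed4 #1, 19.5 to 23.5% higher and 24.9 to 31.7% lower for shMed4 #4, and 14.5 to 18.6% higher and 20.4 to 23.5% lower for shMed4 #4 against shMed4 #1. Same-numbered libraries deviated together little (correlations -0.011 to 0.073, against -0.103 to 0.041 for libraries with different numbers). Such small values cannot settle whether the numbers pair the samples. The replicate block gained 14 calls among the results for named peaks. With the replicate block the shares were 24.9% higher and 33.0% lower for both hairpins, 24.4% higher and 31.7% lower for shMed4 #1, 23.5% higher and 32.6% lower for shMed4 #4 and 19.0% higher and 25.8% lower between hairpins, and Amotl2 had 7 lower peaks. The count tests planned with edgeR and DESeq2 were not run on the recovered reads. Depth limits the weak peaks most: values under about 50 normalised reads, as at the largest fall around Ptpn14, rest on few reads.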
